A study of Mus musculus with 12 samples.

Results

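The genes described here are 10 transcriptional targets of the tumour suppressor p53: Trp53inp1, Ccng1, Cdkn1a, Mdm2, Bbc3, Zmat3, Eda2r, Phlda3, Gtse1 and Perp. They were chosen by symbol among the p53 targets measured in these cells, and are read by 16 probe sets. They are 10 of 18193 genes with a probe set of their own on the array, and all 10 were among the 10759 genes bright enough to be tested. The list was drawn up with earlier results of the same arrays in view. Counts over it are therefore descriptions, given beside the share of all tested genes that passed the same test, and nothing about p53 targets in general is read from them. RNA was measured in G1ME cells, a line of mouse progenitors of megakaryocytes and red cells that is Gata1-negative in every group. The groups were cells given the MIGR1-GFP retrovirus with GATA1 and taken at 42 h, cells given the MIGR1-GFP vector alone and taken at 42 h, GATA1 cells taken at 18 h and vector cells taken at 18 h. All were sorted for GFP, and each group had 3 arrays, lettered A, B and C and described as biological triplicates. All groups share 1 cell line, and no group was left untransduced, so both the vector and the construct comparisons are within transduced, GFP-positive cells.

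p53 is a transcription factor that is kept low in unstressed cells because Mdm2, itself a p53 target, marks it for degradation. DNA damage, oncogene activity and disturbed ribosome assembly release it from Mdm2. It then raises genes that stop the cell cycle, prepare cell death, repair DNA or feed back on p53 itself. In blood cell progenitors p53 is known for restraining growth and for the loss of erythroid cells when ribosome assembly fails. GATA1 is a transcription factor on which the maturation of red cells and megakaryocytes depends.

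Values are deposited linear intensities of the brightest probe set of each gene, given for arrays A, B and C in that order and as the mean ± SD (n = 3). Differences are differences of mean log2(intensity + 16) with their SE, and p-values from limma were adjusted by the Benjamini-Hochberg method over all 10759 tested genes, with 0.05 as the threshold. Intensities of different probe sets are not compared with each other. Between the constructs, rose and fell mean higher and lower with GATA1 than with vector at the same time, not a change over time. On bulk arrays, fewer cells that hold a transcript and less of it per cell cannot be told apart.

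The 12 arrays were alike in scale, with medians between 8.05 and 8.29 and between 29.2% and 29.7% of probe sets above an intensity of 100. The log2 ratio of 3′ to 5′ beta-actin probe sets lay between 0.38 and 0.55 on 11 arrays and was 0.80 on replicate A of GATA1 at 42 h. The Gata1 probe set read 2044 ± 355 in GATA1 cells and 3136 ± 116 in vector cells at 42 h (log2 difference -0.63, adjusted p 0.0035). No source used here says which part of the transcript it reads, relative to the disrupted locus or to the construct, and it is no test of the labels. The cells are called GATA1-labelled or vector-labelled for that reason. The summed intensity of 6 erythroid markers lay between 15350 and 24020 in GATA1-labelled cells and between 295 and 383 in vector-labelled cells at 42 h. At 18 h it lay between 2776 and 3764 in GATA1-labelled cells and between 253 and 521 in vector-labelled cells. Of these markers, Hba-a1 was at or below the array median everywhere, and Klf1, an erythroid transcription factor, averaged 4231 ± 271 in GATA1-labelled and 242 ± 43.0 in vector-labelled cells at 42 h. The sum over 5 megakaryocyte markers lay between 25990 and 32330 in GATA1-labelled cells and between 12470 and 13530 in vector-labelled cells at 42 h. At 18 h that sum was 15510 to 20600 in GATA1-labelled cells and 11620 to 14430 in vector-labelled cells. These markers did not move alike at 42 h, when 3 of the 5 rose and 1 fell, against 10.3% of all tested genes higher and 10.6% lower. Among the 3, Vwf read 5.28 ± 0.025 in vector-labelled cells at 42 h, and all its vector-labelled arrays were below their medians. It was bright enough to be tested only through GATA1-labelled arrays, so its rise adds no support to that count. Pf4 averaged 17656 ± 1896.5 in GATA1-labelled and 8111 ± 596 in vector-labelled cells, and Tubb1 6119 ± 1265 and 363 ± 63.3. Gp9 had the lower mean with GATA1, 2232 ± 125 against 2905 ± 278. Over 9 progenitor markers the sums were 24890 to 28600 in GATA1-labelled and 22960 to 25850 in vector-labelled cells at 42 h, with Cd34 at or below the array median throughout. At 18 h they were 29680 to 33910 in GATA1-labelled and 21630 to 26960 in vector-labelled cells. Lmo2 raised the GATA1 sum at 42 h, with 8905 ± 284 in GATA1-labelled and 2815 ± 659 in vector-labelled cells. Kit went the other way, with 42.9 ± 2.18 and 631 ± 173, as did Gata2, with 623 ± 176 and 3208 ± 679. Of the 8 progenitor markers tested, 2 rose and 3 fell at 42 h, against 10.3% of all tested genes higher and 10.6% lower. Of 4 mast cell markers, Fcer1a, Ms4a2 and Mcpt8 were at or below the median on all arrays, and Cpa3 carried the sum. That sum was 47.2 to 77.4 in GATA1-labelled and 1533 to 2604 in vector-labelled cells at 42 h, and 768 to 903 in GATA1-labelled and 1463 to 2170 in vector-labelled cells at 18 h. The 6 myeloid markers, with Elane and Cebpa at or below the median throughout, summed to 314 to 395 in GATA1-labelled and 549 to 849 in vector-labelled cells at 42 h. At 18 h they summed to 406 to 688 in GATA1-labelled and 518 to 807 in vector-labelled cells. All 4 lymphoid markers were at or below the median on every array. These marker levels move with the construct comparisons below, and their part in those results was not tested.

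The stretch of DNA before the start of a p53 target often holds the p53 response element, which is 2 copies of a 10-base element placed end to end. Windows from 250 bases before to 50 bases after the start, from RefSeq on GRCm38.p6, were matched by symbol to 7 of the 10 genes, with 11 windows in all. Trp53inp1, Zmat3 and Perp are named only. The 10-base element was found on either strand in 4 of the 11 windows (36.4%), against 2745 of 32851 windows of all genes (8.36%). A 20-base element was counted where the core C and G of each 10-base copy matched and at most 1 other base did not. It was found in 3 of the 11 (27.3%), against 22 of 32851 (0.067%). That mismatch limit was set after the windows had been read, so these shares only describe them. The 2 stretches before the start that hold a 20-base element are shown because Ccng1 and Cdkn1a, a regulator of Mdm2 and the main cell cycle inhibitor of the list, gave different results at 42 h. The capitals mark the element, and the sequences run 5′ to 3′ toward the start. The Ccng1 stretch is chr11:40755287-40755536 on the minus strand, with the element at 40755462 to 40755481, ending 175 bases before the start. The Cdkn1a stretch is chr17:29090729-29090978 on the plus strand, with the element at 29090928 to 29090947, ending 31 bases before the more upstream of its annotated starts.
Ccng1: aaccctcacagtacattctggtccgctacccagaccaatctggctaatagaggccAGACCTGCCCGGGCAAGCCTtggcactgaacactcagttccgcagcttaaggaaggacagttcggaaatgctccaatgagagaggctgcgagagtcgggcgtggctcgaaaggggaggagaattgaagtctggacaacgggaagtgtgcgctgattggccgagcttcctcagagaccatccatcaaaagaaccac
Cdkn1a: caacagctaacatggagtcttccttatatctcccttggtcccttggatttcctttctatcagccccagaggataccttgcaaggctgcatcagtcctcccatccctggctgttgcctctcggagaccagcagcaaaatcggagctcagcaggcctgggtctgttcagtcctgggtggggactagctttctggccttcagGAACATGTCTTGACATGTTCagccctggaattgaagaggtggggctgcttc
In Gtse1 the element lies across the start, from 1 base before it, at chr15:85859945-85859964 on the plus strand. It is shown as the site alone, with capitals for its whole length.
Gtse1: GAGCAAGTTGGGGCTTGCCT
The GATA motif was searched on both strands as AGATAA and as AGATAG, and likewise as TGATAA and as TGATAG. It was in 1 of the 11 windows (9.09%), that of Cdkn1a, against 9778 of 32851 (29.8%). A match is a description of these letters, not a measured binding site. Of the other genes whose window holds the 20-base element, 3 were tested (Calhm2, Mthfd1 and Rps27l), and 0 of them passed in any of the comparisons below in the limma fit. At an unadjusted p under 0.05, 1 of the 3 differed between the constructs at 42 h and 1 with time under GATA1. Both were Mthfd1 (limma unadjusted p 0.014 and 0.010). At that threshold 3415 of all 10759 tested genes differed between the constructs at 42 h, and 2927 with time under GATA1.

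**Figure D1:**
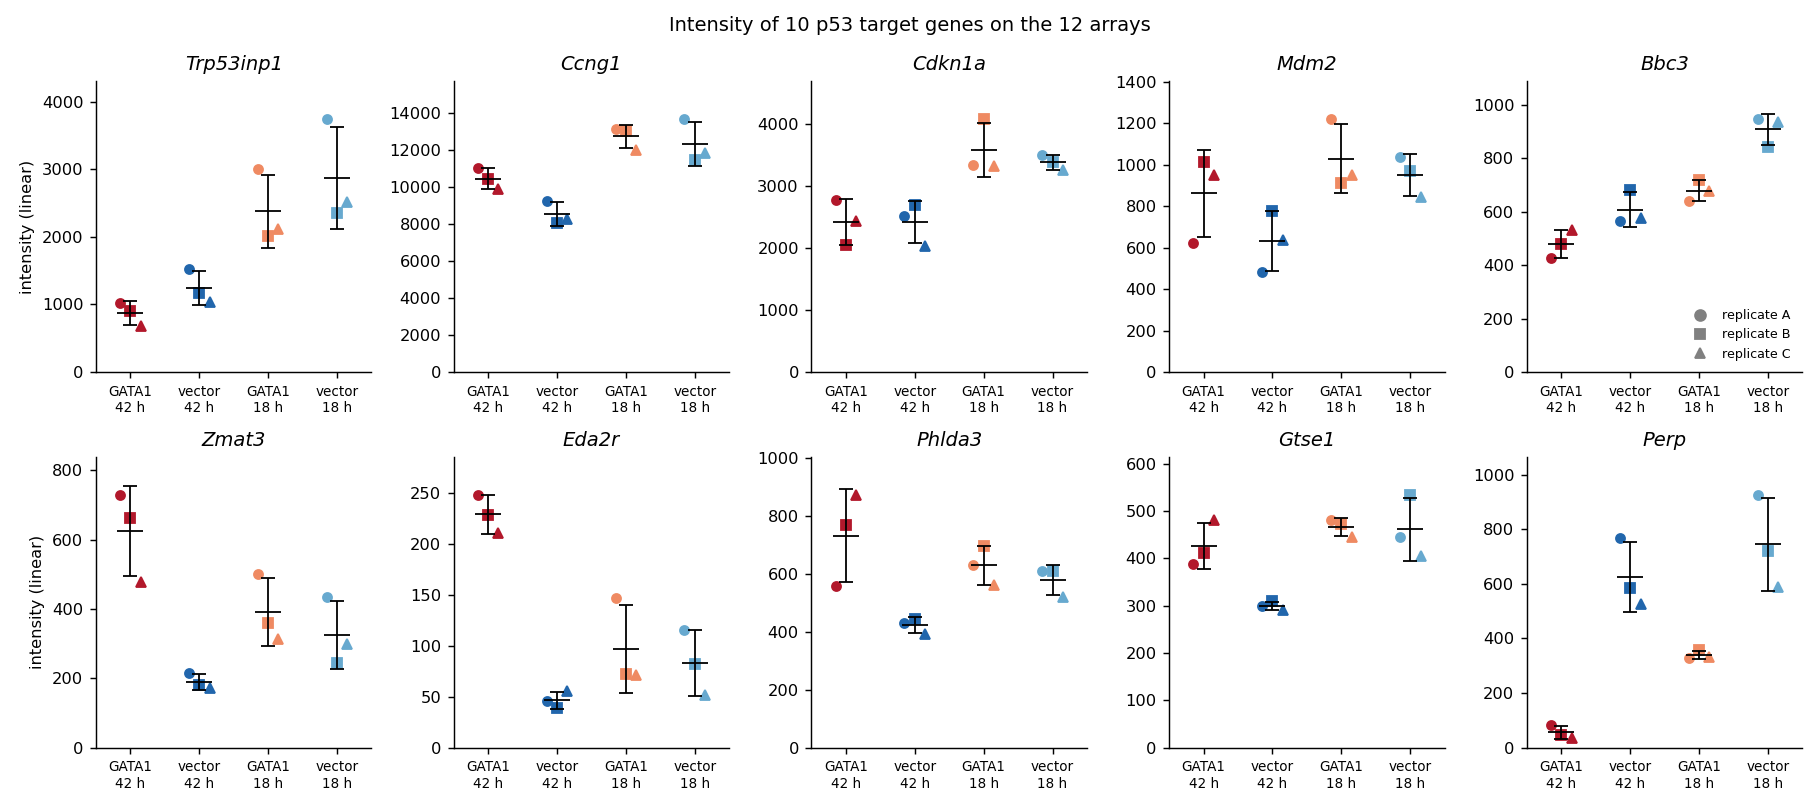
Intensity of the 10 genes on each array, on linear axes that start at 0, with GATA1-labelled cells left of vector-labelled cells at 42 h and then at 18 h. Points are arrays, long bars are group means and error bars are SD (n = 3). Eda2r and Zmat3 were above vector on every GATA1-labelled array at 42 h, Perp was below it, and Trp53inp1 was lower at 42 h than at 18 h under both constructs.

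At 42 h the p53 targets did not move as a block with the construct. The TNF-family receptor Eda2r, the RNA-binding protein Zmat3, the AKT repressor Phlda3, the p53 regulator Gtse1 and the cyclin Ccng1 rose. Perp and Bbc3 fell. Cdkn1a had nearly equal means under both constructs. Thus 5 of 10 rose, 2 fell and 3 did not pass, where 20.9% of all tested genes passed, 10.3% higher and 10.6% lower. The median log2 difference was 0.36 over the 10 genes and 0.0011 over all tested genes. From 18 h to 42 h under GATA1, Eda2r rose (1.18) and Ccng1 fell (-0.28). Zmat3 (0.66), Phlda3 (0.20) and Gtse1 (-0.13) did not pass over that time. In vector-labelled cells the means of Ccng1 (-0.53), Gtse1 (-0.59), Phlda3 (-0.44), Zmat3 (-0.70) and Eda2r (-0.62) were lower at 42 h, and none passed.

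Among genes that act on p53, Mdm2 encodes the ubiquitin ligase that degrades it. Its intensity was 621, 1012 and 952 (862 ± 210) in GATA1-labelled cells and 484, 776 and 636 (632 ± 146) in vector-labelled cells at 42 h. The groups overlapped, and the difference of 0.43 ± 0.22 did not pass (adjusted p 0.21, 95% interval -0.05 to 0.92). Ccng1, cyclin G1, brings the phosphatase PP2A to Mdm2. It read 11032, 10418 and 9907 (10453 ± 563) in GATA1-labelled cells and 9270, 8046 and 8269 (8529 ± 652) in vector-labelled cells. All GATA1-labelled arrays were above all vector-labelled ones, and the rise was 0.29 ± 0.08 (adjusted p 0.029). It did not pass without any 1 of vector 42 h B or C or GATA1 42 h A or B (adjusted p between 0.076 and 0.098). Gtse1 encodes a microtubule-associated protein of late S and G2 phase that moves p53 out of the nucleus. It read 389, 411 and 482 (427 ± 48.5) in GATA1-labelled cells, against 299, 309 and 292 (300 ± 8.87) in vector-labelled cells. These groups did not overlap, and the rise was 0.48 ± 0.10 (adjusted p 0.0079).

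Among the arrest and RNA-binding genes, Cdkn1a encodes p21, an inhibitor of cyclin-dependent kinases. It read 2784, 2045 and 2431 (2420 ± 370) in GATA1-labelled cells and 2525, 2696 and 2043 (2421 ± 339) in vector-labelled cells at 42 h. The difference was -0.0023 ± 0.13 (adjusted p 0.999), and its 95% interval ran from -0.31 to 0.30, so a change of that size in either direction would not have been detected here. Zmat3 encodes a zinc finger protein that binds RNA and is known as a growth-restraining p53 target. It read 730, 663 and 479 (624 ± 130) in GATA1-labelled cells, against 216, 180 and 171 (189 ± 24.0) in vector-labelled cells. The groups were well apart, and the fold was 3.09 (log2 1.63 ± 0.24, adjusted p 0.0011).

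Among genes of cell death and survival, Eda2r encodes a receptor of the TNF family that binds ectodysplasin A2. It read 248, 228 and 210 (229 ± 18.9) in GATA1-labelled cells, against 45.4, 38.5 and 55.3 (46.4 ± 8.44) in vector-labelled cells at 42 h. The rise was 3.94-fold (log2 1.98 ± 0.28, adjusted p 0.00086), with no overlap. Phlda3 encodes a pleckstrin-homology protein that competes with AKT for membrane lipids. It read 558, 768 and 875 (734 ± 161) in GATA1-labelled cells, against 433, 446 and 394 (424 ± 27.0) in vector-labelled cells, a rise of 0.75 ± 0.15 (adjusted p 0.0066) without overlap.

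Perp encodes a membrane protein of desmosomes that is also linked to apoptosis. It read 84.0, 46.4 and 37.3 (55.9 ± 24.8) in GATA1-labelled cells, against 768, 583 and 525 (625 ± 127) in vector-labelled cells at 42 h. This was the largest difference of the list, 9.14-fold lower (log2 -3.19 ± 0.24, adjusted p 1.8e-05), and the groups were far apart. Bbc3 encodes PUMA, a protein that frees the mitochondrial death pathway by binding BCL2 relatives. It read 427, 479 and 532 (479 ± 52.3) in GATA1-labelled cells and 563, 682 and 574 (607 ± 65.4) in vector-labelled cells. The groups did not overlap, and the fall was -0.33 ± 0.10 (adjusted p 0.038). That call was lost without any 1 of GATA1 42 h A or B, vector 42 h B or C, GATA1 18 h C or vector 18 h C (adjusted p between 0.051 and 0.12). Trp53inp1 encodes a stress protein that takes part in autophagy and cell death. It read 1028, 905 and 686 (873 ± 173) in GATA1-labelled cells and 1520, 1163 and 1041 (1241 ± 249) in vector-labelled cells. The GATA1-labelled arrays were all below the vector-labelled ones, yet the difference of -0.50 ± 0.24 did not pass (adjusted p 0.18).

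At 18 h none of the 10 genes passed between the constructs in the limma fit, where 1.85% of tested genes did. At an unadjusted p under 0.05 there were 2 of the 10, against 9.82% of tested genes. Those were Perp and Bbc3, the genes that were lower at 42 h. Perp read 328, 357 and 334 (340 ± 14.95) in GATA1-labelled cells, against 926, 719 and 589 (745 ± 170) in vector-labelled cells at 18 h. The arrays did not overlap, and the difference was -1.07 ± 0.24 (adjusted p 0.066, and 0.022 without GATA1 42 h A). Bbc3 read 638, 720 and 679 (679 ± 41.0) in GATA1-labelled cells, against 946, 841 and 935 (907 ± 57.9) in vector-labelled cells, again without overlap (-0.41 ± 0.10, adjusted p 0.081). For the other 8 genes the arrays overlapped. Their differences ran from -0.26 for Trp53inp1 to 0.26 for Zmat3, each with an adjusted p of 0.9999. Eda2r, for example, read 147, 72.5 and 70.9 (96.7 ± 43.3) in GATA1-labelled cells and 116, 81.7 and 51.9 (83.1 ± 31.9) in vector-labelled cells at 18 h. Replicate A was the highest in both groups.

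**Figure D2:**
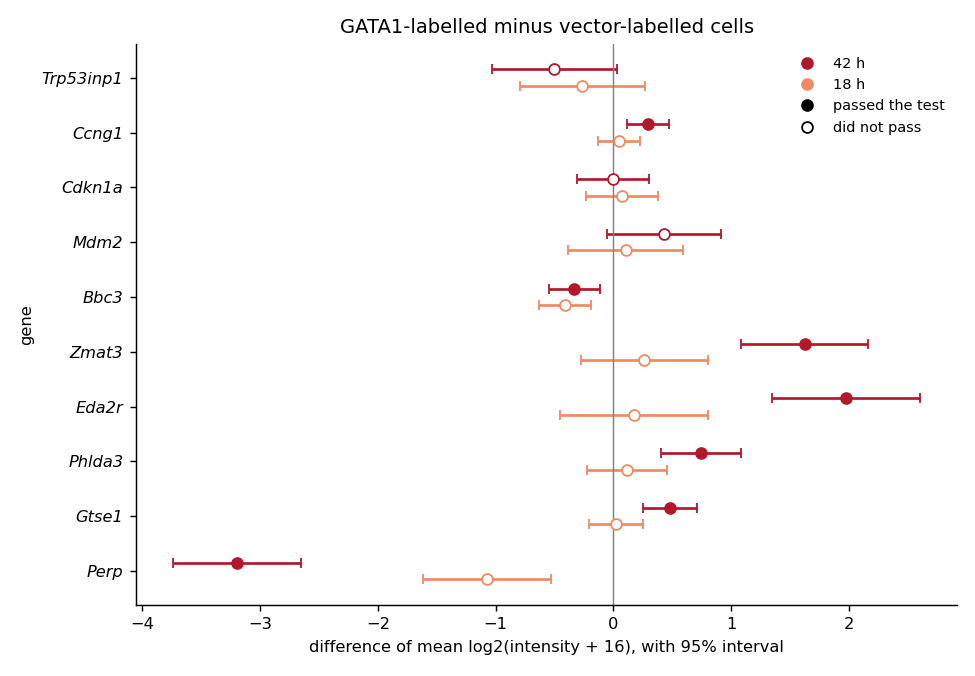
Log2 difference of GATA1-labelled from vector-labelled cells for each gene at 42 h and 18 h, with 95% intervals from the limma fit; filled points passed the threshold. At 42 h the differences ran from -3.19 (Perp) to 1.98 (Eda2r), and at 18 h none passed.

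The effect of the construct was larger in size at 42 h than at 18 h for Perp and Eda2r by the test of the difference itself. For Perp the effects differed by -2.12 ± 0.34 (adjusted p 0.0083), and for Eda2r by 1.80 ± 0.40 (adjusted p 0.034). Thus 1 of 10 passed in each direction, where 4.66% of tested genes passed, 2.29% higher and 2.37% lower. The Eda2r call was lost when any 1 of 9 arrays was left out, all but vector 18 h C, GATA1 18 h A and vector 42 h C, with adjusted p between 0.063 and 0.088. Zmat3, with a difference of effects of 1.36 ± 0.34, did not pass (adjusted p 0.056, and between 0.036 and 0.049 without any 1 of vector 18 h B, GATA1 18 h A or GATA1 42 h C), and Phlda3 did not either (0.63 ± 0.21, adjusted p 0.16, and 0.022 without GATA1 42 h A). The remaining 6 genes had differences of effects between -0.24 and 0.46 and did not pass.

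Within vector-labelled cells, every gene of the list had a lower mean at 42 h than at 18 h, but none passed in the limma fit. Only 0.0186% of tested genes did, which is 2 genes. These were Trp53inp2, the relative of Trp53inp1 known for a role in autophagy (-0.78 ± 0.06, adjusted p 0.0048), and Mpp1, a red cell membrane scaffold (-0.37 ± 0.04, adjusted p 0.040), both named after their values were seen. At an unadjusted p under 0.05, 8 of the 10 were lower, against 4.11% of tested genes. The arrays at 42 h were all below those at 18 h for 8 of the 10, against 7.18% of tested genes. The median difference was -0.58 over the 10 genes and -0.011 over all tested genes. The list was drawn up with these values in view, so these shares are descriptions. The vector-labelled arrays at 42 h also enter the construct comparison at that time, so the 2 results are not independent.

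Trp53inp1 had the largest difference over time in vector-labelled cells, with 1520, 1163 and 1041 at 42 h, against 3744, 2353 and 2514 (2870 ± 761) at 18 h. That is 2.27-fold lower without overlap (-1.19 ± 0.24, unadjusted p 0.00065, adjusted p 0.23). Ccng1 had the smallest unadjusted p of the list, 8.4e-05, with 8529 ± 652 at 42 h, against 13679, 11464 and 11867 (12337 ± 1180) at 18 h (-0.53 ± 0.08, adjusted p 0.10). Gtse1 read 300 ± 8.87 at 42 h, against 445, 535 and 405 (462 ± 66.4) at 18 h (-0.59 ± 0.10, adjusted p 0.13). These 3 genes did not overlap between the times. Bbc3 (-0.57 ± 0.10), Mdm2 (-0.60 ± 0.22), Zmat3 (-0.70 ± 0.24), Cdkn1a (-0.49 ± 0.13) and Phlda3 (-0.44 ± 0.15) did not overlap either, with adjusted p between 0.13 and 0.66. Zmat3 read 216, 180 and 171 at 42 h, against 434, 244 and 299 (326 ± 97.8) at 18 h. The arrays of Eda2r (-0.62 ± 0.28) and Perp (-0.24 ± 0.24) overlapped between the times.

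Within GATA1-labelled cells, 5 of the 10 genes fell between 18 h and 42 h, Eda2r rose and 4 did not pass. The share of all tested genes that passed was 14.6%, of which 6.72% were higher and 7.91% lower, and the arrays at 42 h were all below those at 18 h for 5 of the 10 genes and for 15.1% of tested genes. The median difference was -0.28 over the 10 genes and 0.0013 over all tested genes. This comparison shares its arrays at 42 h with the construct comparison at that time, so the 2 are not independent.

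Perp fell most, with 84.0, 46.4 and 37.3 at 42 h, against 328, 357 and 334 at 18 h (-2.36 ± 0.24, adjusted p 0.00024). Trp53inp1 read 1028, 905 and 686 at 42 h, against 3004, 2017 and 2112 (2378 ± 545) at 18 h, a fall of -1.42 ± 0.24 (adjusted p 0.0037). It was thus lower at the later time in both arms, by 1.42 with GATA1 and by 1.19 with vector on the log2 scale, and the difference between the arms of -0.24 ± 0.33 did not pass (adjusted p 0.87). Cdkn1a read 2784, 2045 and 2431 at 42 h, against 3340, 4087 and 3323 (3583 ± 436) at 18 h (-0.57 ± 0.13, adjusted p 0.021). Its vector-labelled cells read 2421 ± 339 at 42 h, against 3385 ± 118 at 18 h. The 2 arms of Cdkn1a overlapped at each time. Bbc3 fell by 0.49 ± 0.10 (adjusted p 0.0085), with 479 ± 52.3 at 42 h, against 679 ± 41.0 at 18 h. Ccng1 fell by 0.28 ± 0.08 (adjusted p 0.044), with 10453 ± 563 at 42 h, against 13143, 13052 and 12004 (12733 ± 633) at 18 h.

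Eda2r rose with time under GATA1, with 248, 228 and 210 at 42 h, against 147, 72.5 and 70.9 at 18 h (1.18 ± 0.28, adjusted p 0.020). Zmat3 had a higher mean at 42 h, 624 ± 130, against 501, 359 and 313 (391 ± 98.2) at 18 h, but the arrays overlapped and it did not pass (0.66 ± 0.24, adjusted p 0.10). Phlda3 (0.20 ± 0.15), Gtse1 (-0.13 ± 0.10) and Mdm2 (-0.27 ± 0.22) overlapped between the times. The Eda2r call was lost without any 1 of GATA1 18 h B or C or GATA1 42 h A or B (adjusted p 0.057 to 0.079), and that of Cdkn1a without GATA1 18 h B or GATA1 42 h B or C (0.054 to 0.075). That of Ccng1 was lost without any 1 of 8 arrays, which were the 3 GATA1 18 h arrays, GATA1 42 h B and C, vector 18 h C and vector 42 h B and C (0.050 to 0.13). The count of 6 that passed became 3 without GATA1 18 h B or GATA1 42 h B.

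**Figure D3:**
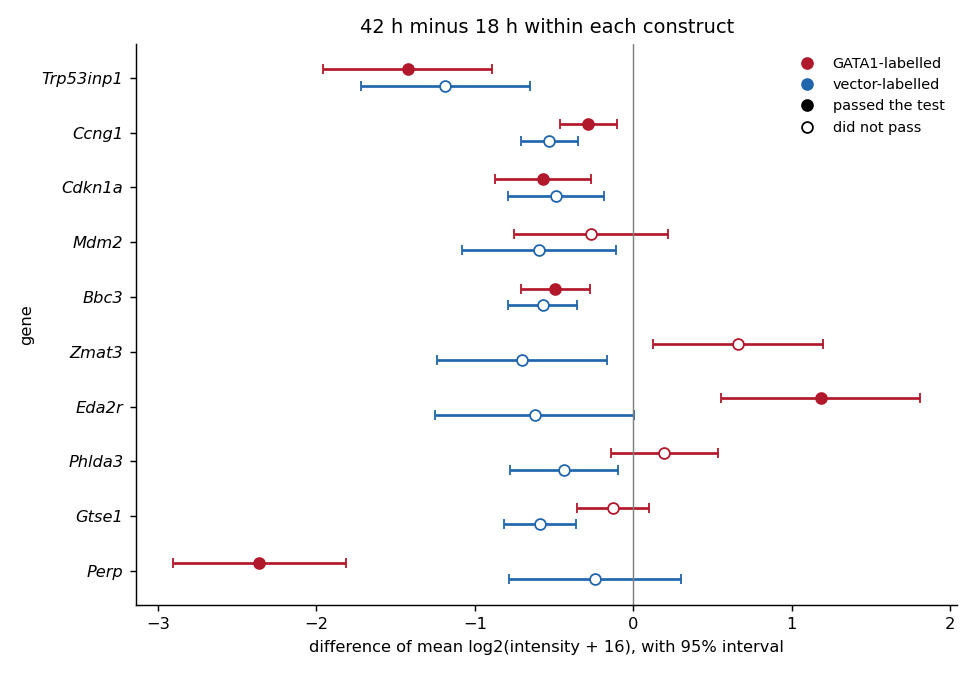
Log2 difference between 42 h and 18 h for each gene within GATA1-labelled and within vector-labelled cells, with 95% intervals; filled points passed the threshold. All 10 vector points lie below 0 and none passed, while under GATA1 Eda2r rose and 5 genes fell.

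Some genes are read by several probe sets, and those were fitted again with every tested probe set as a feature of its own. For Mdm2 the second probe set was less spread than the first. It read 602, 701 and 679 (661 ± 52.1) in GATA1-labelled cells, against 462, 523 and 516 (501 ± 33.6) in vector-labelled cells at 42 h, and rose by 0.39 ± 0.10 (adjusted p 0.025). The first Mdm2 probe set differed by a similar 0.43 ± 0.22 but did not pass, so the Mdm2 call depends on the probe set. The remaining Mdm2 probe set read between 3.91 and 4.04 on all arrays, below the array median, and was not tested. The 3 Ccng1 probe sets differed by 0.29, 0.41 and 0.41 between the constructs at 42 h, with adjusted p of 0.037, 0.048 and 0.077. Both Cdkn1a probe sets had nearly equal means under the constructs at 42 h, with differences of -0.0023 and -0.0031, and the second read 1309 ± 246 in GATA1-labelled and 1302 ± 130 in vector-labelled cells. The second Trp53inp1 probe set was dim, with 39.0 ± 9.62 in GATA1-labelled cells at 42 h and 78.1 ± 28.5 at 18 h. Its difference over time under GATA1 was -0.75 ± 0.21 (adjusted p 0.055), against -1.42 for the bright one. Over that time the 3 Ccng1 probe sets differed by -0.28, -0.28 and -0.26 under GATA1, and none passed in this fit (adjusted p 0.057, 0.19 and 0.31). The second Cdkn1a probe set differed by -0.55 ± 0.19 and did not pass (adjusted p 0.10), against -0.57 for the first (adjusted p 0.027). In vector-labelled cells all probe sets of these 4 genes that were tested had 42 h arrays below those at 18 h.

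**Figure D4:**
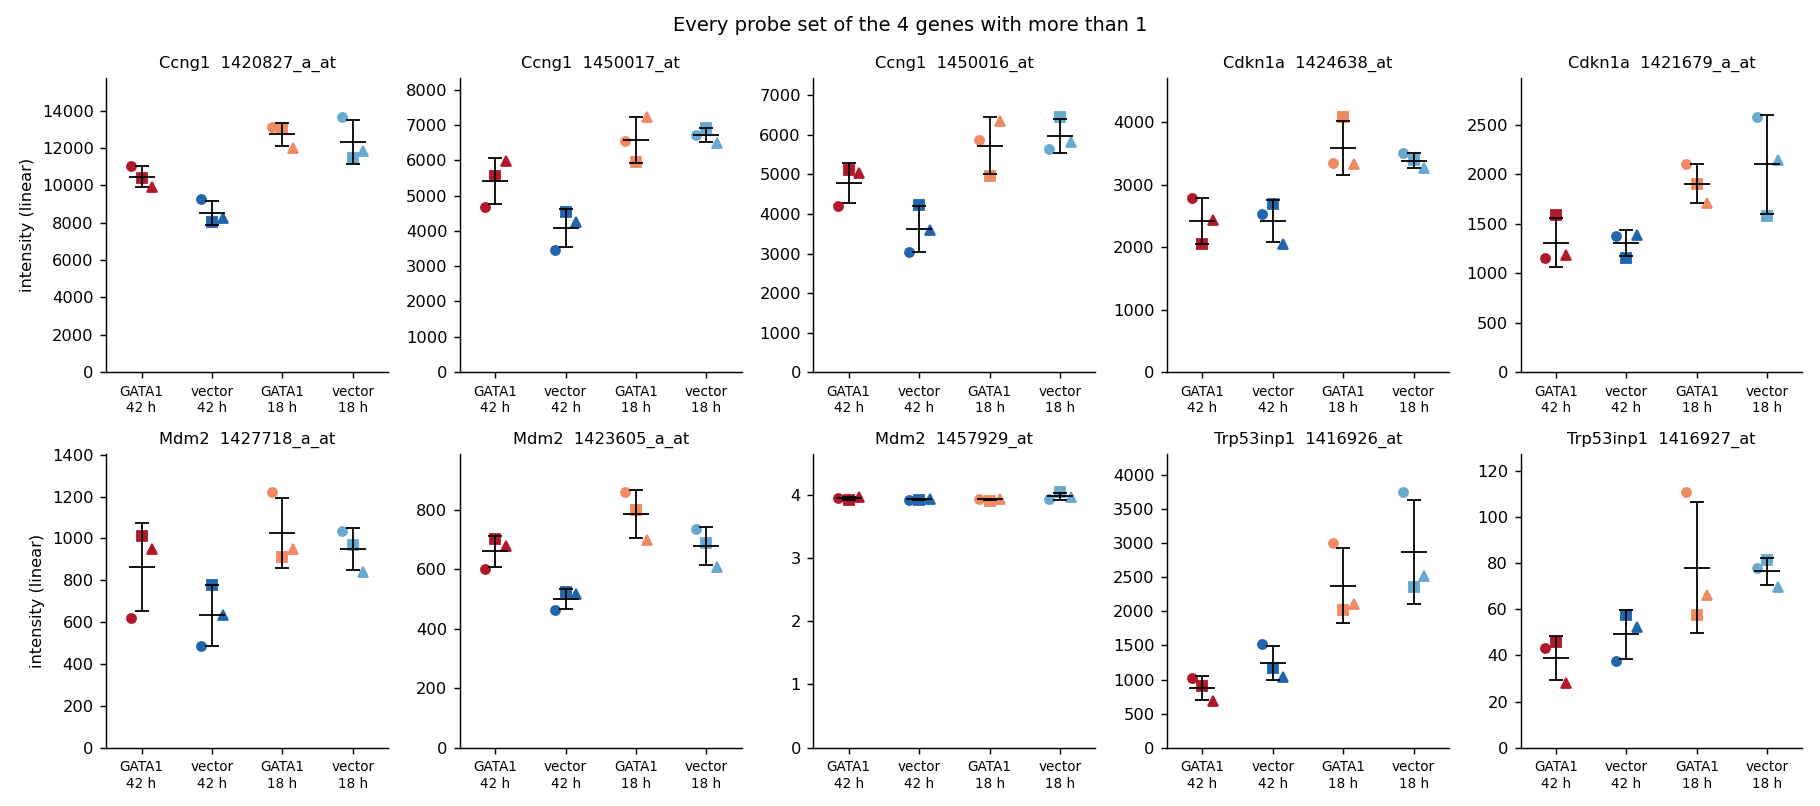
Intensity per array, on linear axes that start at 0, of every probe set of the 4 genes read by more than 1, with GATA1-labelled cells left of vector-labelled cells at 42 h and then at 18 h. Points are arrays, long bars are group means and error bars are SD (n = 3). All 3 Ccng1 probe sets had higher GATA1-labelled than vector-labelled means at 42 h, and the dimmest Mdm2 probe set stayed near 4 on all arrays.

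Genes with the most similar pattern were sought for each member over the 12 arrays, as Pearson correlations of log2 values, which share the 4 groups and are given as descriptions. Perp was most like Plxdc2 (0.997) and Filip1l (0.992). Eda2r was most like Stxbp3 (0.971) and Tceal8 (0.963), and Zmat3 like Pde5a (0.963) and Pqlc3 (0.947). Trp53inp1 was most like Dglucy (0.971) and Abhd4 (0.957), and Bbc3 like the immediate early gene Jun (0.951) and H13 (0.933). Ccng1 and Gtse1 had Gphn in common among their nearest genes (0.926 and 0.868), beside Aco1 (0.915) for Ccng1 and 1110008P14Rik (0.879) for Gtse1. Nearest to Cdkn1a were Gstm4 (0.894) and Adssl1 (0.893), to Phlda3 Ppp3ca (0.892) and Wipi1 (0.881), and to Mdm2 Cltb (0.867) and Ino80c (0.856). Within the list, Zmat3 and Eda2r were the most alike pair (0.925), and Eda2r and Perp were the most opposed (-0.816).

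The wider pathway was read through 5 lists, written with earlier results known. At 42 h 17 of their 78 tested genes passed, a share close to the 20.9% of all tested genes. The counts of each list stand against 10.3% of all tested genes higher and 10.6% lower, and a median over all of 0.0011. Of 20 tested p53 regulators 1 rose at 42 h and 0 fell. This was Hipk2, a kinase that phosphorylates p53, which read 8445 ± 1484 in GATA1-labelled and 5586 ± 879 in vector-labelled cells (0.59 ± 0.14, adjusted p 0.016). The median over these regulators was 0.011.

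Of 11 other targets of the arrest and stress group, 2 rose and 1 fell at 42 h, where 20.9% of all tested genes passed, with a median of 0.14. Psrc1, a spindle protein, rose by 0.58 ± 0.17, and Gadd45a, a stress sensor of growth arrest, by 0.55 ± 0.13, while Sesn1, a stress-induced sestrin, fell by 0.41 ± 0.09. Btg2, an antiproliferative gene named after its values were seen, had the largest difference of this group but did not pass (1.66 ± 0.53, adjusted p 0.055). It read 350, 174 and 137 in GATA1-labelled cells, against 68.9, 42.4 and 51.3 in vector-labelled cells. Of 11 other cell death targets, 5 rose and 0 fell, where 10.3% of all tested genes were higher and 10.6% lower, with a median of 0.19. Steap3, an iron reductase of maturing red cells as well as a p53 target, rose by 1.52 ± 0.39 (adjusted p 0.021), with 157, 309 and 551 in GATA1-labelled cells, against 75.7, 137 and 80.0 in vector-labelled cells. Triap1, which restrains apoptosis, rose by 0.65 ± 0.08 (702 ± 16.3 in GATA1-labelled and 444 ± 60.5 in vector-labelled cells, adjusted p 0.00026), and the pro-apoptotic Siva1 by 0.50 ± 0.08. Aen and Pidd1 were also counted as rising, by 0.45 ± 0.12 and 0.38 ± 0.11 (adjusted p 0.028 and 0.044).

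Of 13 other targets of repair and metabolism, 3 rose and 1 fell, where 20.9% of all tested genes passed, with a median of 0.085. The excision repair nuclease Ercc5 rose by 0.82 ± 0.17, with 255 ± 45.8 in GATA1-labelled and 137 ± 29.5 in vector-labelled cells. The damage sensor Xpc fell by 0.67 ± 0.16, with 204 ± 21.9 in GATA1-labelled and 333 ± 11.7 in vector-labelled cells, so 2 genes of the same repair pathway changed in opposite directions. Dcxr, an enzyme of sugar metabolism, rose by 0.55 ± 0.14. Ephx1, an epoxide hydrolase, was the other gene counted as rising, but it was dim, with 24.1, 12.9 and 12.2 in GATA1-labelled cells and 6.73, 6.44 and 7.79 in vector-labelled cells. The vector-labelled arrays were below their array medians, so no size is given for its difference. Of 23 genes of G2 and mitosis, which fall where p53 halts the cycle, 4 rose and 0 fell. Of all tested genes 10.3% were higher and 10.6% lower. The share of this list that passed in either direction was below the 20.9% of all tested genes. The 4 that rose were led by Cdc25b (0.62 ± 0.17), Ube2c (0.47 ± 0.10) and Ccna2 (0.41 ± 0.11), and the list's median was 0.15.

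In the limma fit, 0 genes of the 5 lists passed at 18 h between the constructs, and 0 in vector-labelled cells over time, where the list medians ran from -0.14 to 0.0031. At an unadjusted p under 0.05 these were 6 and 11 of the 78 genes, against 1056 and 676 of all 10759 tested genes. Over time under GATA1 6 of the 78 passed, against 14.6% of all tested genes. Triap1 rose by 0.50 ± 0.08 and Siva1 by 0.31 ± 0.08, Casp1, an inflammatory caspase that was dim on all arrays, fell by 0.24 ± 0.07 (10.9 ± 0.28 at 42 h, against 15.9 ± 3.55 at 18 h), and the mitotic genes Ccnb2 (0.67 ± 0.14), Ccna2 (0.57 ± 0.11) and Ube2c (0.35 ± 0.10) rose. Over the same time in vector-labelled cells Ccnb2 differed by 0.56 ± 0.14, Ccna2 by 0.18 ± 0.11 and Ube2c by -0.0034 ± 0.10, and none passed. The difference of effects for Ccnb2, 0.11 ± 0.20, did not pass (adjusted p 0.92). In the difference between the effects at the 2 times Triap1 passed (0.55 ± 0.11, adjusted p 0.020), which is 1 of the 78, against 4.66% of all tested genes.

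**Figure D5:**
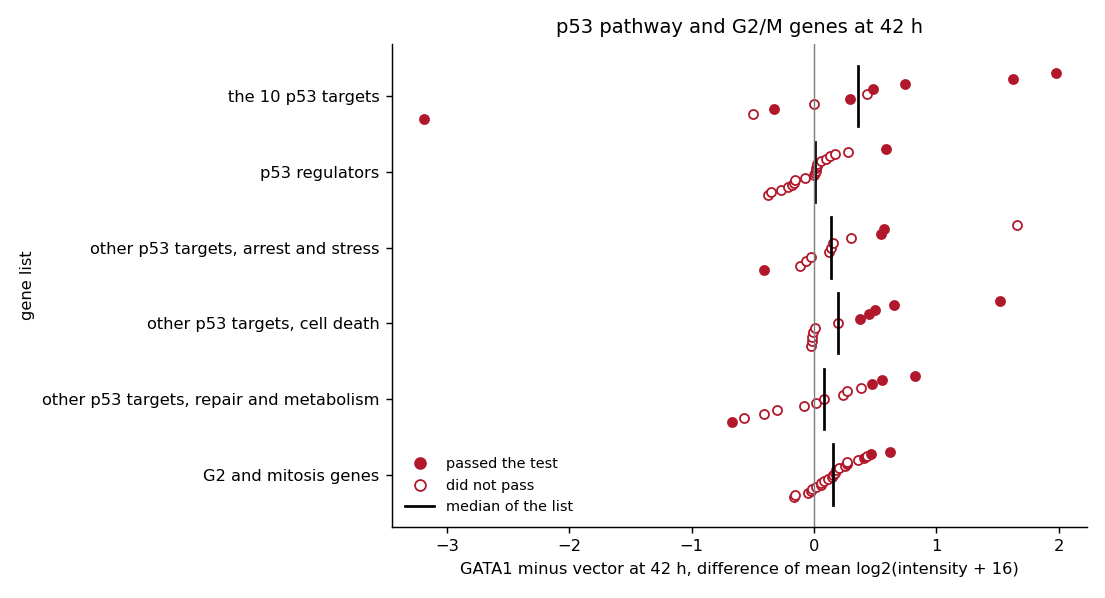
Log2 difference of GATA1-labelled from vector-labelled cells at 42 h for each tested gene of the 10 members and the 5 wider lists; filled points passed the threshold and bars mark medians. The members span -3.19 to 1.98, and the list medians lie between 0.011 and 0.19.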

How the data were processed

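RNA of 12 samples was hybridised to 1-colour Affymetrix arrays. The authors deposited linear intensity values of 45101 probe sets. Per the submitters' processing notes, GCRMA and MAS5 were used, with no version and no word on which of them gave these values. Background correction and scaling are not given in the sources used here, and no further normalization was applied. Platform annotation gave 1 symbol for 34945 probe sets, several for 932 and none for 9211, and a gene was named only by a probe set with 1 symbol. Values were analysed as log2(intensity + 16), which understates changes of dim genes. Each gene was read from its brightest probe set (mean of all arrays), and genes above the array median on at least 3 arrays were tested, which left 10759 of 18193. The lmFit and eBayes functions of limma 3.58.1 (R 4.3.3) were run on 12 arrays in 4 groups, two-sided, with Benjamini-Hochberg adjustment over all tested genes and a threshold of 0.05. The comparisons were GATA1 against vector at each time, 42 h against 18 h in each arm, and the difference of the construct effects. Data were simulated for the 42 h comparison over 10759 genes, with independent normal noise and 50 genes given each change. Of changes of 0.5, 1, -1 and 2 (log2), 38%, 88%, 88% and 100% were recovered, with 9 false among 166 calls. The real comparison called 2251 genes, so its adjusted threshold was less strict and these rates do not carry over to it. There is no read depth, and the number of arrays limits the precision. No 2 arrays held identical values for more than 0.0266% of probe sets. The replicate letters were not used as pairs: deviations of same-letter arrays correlated between -0.107 and 0.657, over 0.1 in 16 of 18 pairs but not in all, and the labels name no shared culture or day. Members and lists were chosen with earlier results of these data known. Genes named were the members, Gata1, up to 3 rising and 3 falling most per list and comparison, and the 2 most alike genes per member. Aen and Pidd1, the remaining risers of the cell death list at 42 h, were named besides, after their values were seen. Sequences are from RefSeq, GRCm38.p6.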

Additional observations from a re-analysis of the deposited data

Results flagged for a closer look

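The effect of GATA1 differed between the times for Perp and Eda2r, by a test of the difference itself. For Perp the construct effect was -3.19 at 42 h and -1.07 at 18 h (log2), a difference of -2.12 ± 0.34 (limma adjusted p 0.0083). For Eda2r it was 1.98 at 42 h and 0.17 at 18 h, a difference of 1.80 ± 0.40 (adjusted p 0.034). The Perp difference passed in every alternative run, and the Eda2r difference was lost in 10 of 22.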

How the results depend on the processing

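No member difference that passed changed direction under any alternative. The count of members passing at 42 h was 7 and lay between 5 and 8 in all alternatives (5 to 7 when single arrays were left out). Eda2r, Zmat3, Phlda3 and Perp passed in all 23 alternatives, Gtse1 in 22 (adjusted p 0.061 without the 4 arrays lettered A), Ccng1 in 16 and Bbc3 in 14. At 18 h the count was 0, became 1 with a pseudocount of 64, with a filter at intensity 100 and with a replicate block, became 2 with array weights, and lay between 0 and 1 when single arrays were left out. Over time under GATA1 the count of 6 became 3 with the second brightest probe set and lay between 3 and 6 when single arrays were left out. Over time in vector cells the count of 0 became 2 with the replicate block (Trp53inp1, adjusted p 0.010, and Ccng1, 0.011) and stayed between 0 and 0 when single arrays were left out. For the difference of effects the count of 2 became 1 with no filter, 3 with a pseudocount of 1, with the filter at intensity 100, with the replicate block and with array weights, and lay between 1 and 3 when single arrays were left out. The replicate block raised the counts of all genes called to 358 from 199 at 18 h, to 41 from 2 in vector over time and to 846 from 501 for the difference of effects, and most same-letter arrays deviated together (median correlation 0.414, against -0.174 for different letters). This is a hint of shared variation from the data, not from the design: same-letter correlations reached down to -0.107, and not every array correlated best with its own letter. Counts of all genes at 18 h were also 119 with no filter, 114 with the second brightest probe set, 64 with only the arrays compared, 46 without the arrays lettered A and 101 to 204 when single arrays were left out, with the lowest values without GATA1 18 h A (101), vector 18 h B (116), vector 18 h A (117) and GATA1 18 h B (120). Over time under GATA1 the 1574 genes called became 2929 with array weights, 1021 with the second brightest probe set and 1024 without GATA1 42 h B. For vector over time the 2 became 5 with quantile normalization, 4 with the second brightest probe set and 0 without the arrays lettered A or with only the arrays compared. For the difference of effects the 501 became 319 with no filter, 315 with the second brightest probe set, 228 without the arrays lettered A and as few as 322 when single arrays were left out (GATA1 42 h B). The cause of these shifts was not tested. Dim probe sets, such as the second of Trp53inp1, lie where the pseudocount compresses changes.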
